A study of Mus musculus with 25 samples.

Results

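The 100 nuclear genes described here encode the machinery of oxidative phosphorylation. They were taken, by symbol, from the 21883 protein-coding nuclear genes of the mouse annotation GRCm38.p6. The rule kept symbols that start with Ndufa, Ndufb, Ndufc, Ndufs or Ndufv, Sdha to Sdhd, Uqcr, Cox4 to Cox8 or Atp5, without pseudogenes. It gave 47 genes of complex I, 8 of complex II, 8 of complex III, 20 of complex IV and 17 of the ATP synthase, and 12 of these 100 encode assembly factors that are not part of the finished complexes. The other 21783 protein-coding genes served as background. A gene counted as occupied when a peak overlapped the 1 kb on either side of either end of the gene by at least 1 bp.

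The study asked how TCF-1, a T cell transcription factor encoded by Tcf7, takes part in the folding of the genome, and mapped proteins on chromatin by ChIP-seq in a pair of mouse lines. Scid.adh is a thymic lymphoma line that resembles T precursors of the DN3 stage, and it was compared between TCF1 KO cells and cells with an empty vector (EV). Both conditions had 2 lists each for CTCF, SMC1, NIPBL and H3K27ac, and EV cells also had 2 lists for TCF-1. NIH-3T3 is an embryonic fibroblast line, and it was compared between cells with TCF1 induced and untreated cells. CTCF had 2 lists per condition there, SMC1 had 1 list per condition, and TCF-1 had 1 list, from induced cells. The labels name neither the inducing agent and its duration nor the clone, the guide or the origin of the replicates, so the spread between lists may be technical. Every Scid.adh sample carries the lymphoma background, so neither condition is a normal thymocyte.

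Oxidative phosphorylation passes electrons from NADH and succinate through complexes I to IV to oxygen, pumps protons across the inner mitochondrial membrane and lets the ATP synthase use their return. All but a few subunits are encoded in the nucleus, by genes that nearly every cell uses. CTCF marks insulator sites, SMC1 is a subunit of the cohesin ring that holds DNA loops, NIPBL loads cohesin, and acetylation of histone H3 at lysine 27 (H3K27ac) marks active promoters and enhancers.

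The promoter windows of 8 members are shown because they carry the contrasts described below. RefSeq (GRCm38.p6) gave 87 promoter windows for 82 of the 100 members, each with 250 bases before the transcription start and 50 after it. Peaks of all 25 lists met the windows of Atp5c1, Ndufa12, Ndufb7 and Ndufab1. Atp5g1 had the widest DN3 TCF-1 site, Cox6a1 held 5 kinds of motif, Ndufa5 held the single TCF/LEF motif, and no peak met Cox7a1. Sequences read 5′ to 3′ along the gene in lower case, and capitals mark the letters of a motif match on either strand.
Atp5c1 (chr2:10080461-10080760, minus strand): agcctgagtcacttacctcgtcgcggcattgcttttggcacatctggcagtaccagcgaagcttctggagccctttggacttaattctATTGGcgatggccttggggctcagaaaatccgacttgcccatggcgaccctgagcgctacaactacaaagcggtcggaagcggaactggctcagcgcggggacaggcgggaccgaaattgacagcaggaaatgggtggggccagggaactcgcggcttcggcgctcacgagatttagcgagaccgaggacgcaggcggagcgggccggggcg
Ndufa12 (chr10:94198785-94199084, plus strand): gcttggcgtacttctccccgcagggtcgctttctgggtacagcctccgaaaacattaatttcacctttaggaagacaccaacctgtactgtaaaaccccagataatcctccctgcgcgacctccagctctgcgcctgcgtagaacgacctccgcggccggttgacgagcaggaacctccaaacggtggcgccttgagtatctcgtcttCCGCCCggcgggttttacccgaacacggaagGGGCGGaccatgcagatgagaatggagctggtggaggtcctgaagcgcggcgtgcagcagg
Ndufb7 (chr8:83566508-83566807, plus strand): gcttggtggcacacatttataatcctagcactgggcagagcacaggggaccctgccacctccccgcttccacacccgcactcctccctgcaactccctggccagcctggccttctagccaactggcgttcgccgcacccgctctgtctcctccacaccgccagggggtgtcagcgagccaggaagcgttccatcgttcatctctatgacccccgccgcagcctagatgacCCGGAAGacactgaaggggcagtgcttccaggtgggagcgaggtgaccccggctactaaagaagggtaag
Ndufab1 (chr7:122101799-122102098, minus strand): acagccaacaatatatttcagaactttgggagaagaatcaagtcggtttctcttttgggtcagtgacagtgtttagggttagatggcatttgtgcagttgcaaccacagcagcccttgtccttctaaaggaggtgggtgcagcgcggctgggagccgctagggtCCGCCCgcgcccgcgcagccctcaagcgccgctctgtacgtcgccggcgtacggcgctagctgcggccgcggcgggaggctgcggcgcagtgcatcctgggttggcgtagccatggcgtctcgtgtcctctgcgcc
Atp5g1 (chr11:96075582-96075881, minus strand): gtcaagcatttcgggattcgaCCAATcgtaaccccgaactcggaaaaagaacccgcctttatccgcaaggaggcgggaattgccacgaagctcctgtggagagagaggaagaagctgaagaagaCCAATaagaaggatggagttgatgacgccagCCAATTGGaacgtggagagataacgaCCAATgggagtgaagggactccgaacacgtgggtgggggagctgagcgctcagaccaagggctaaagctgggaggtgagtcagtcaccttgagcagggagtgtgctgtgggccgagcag
Cox6a1 (chr5:115348909-115349208, minus strand): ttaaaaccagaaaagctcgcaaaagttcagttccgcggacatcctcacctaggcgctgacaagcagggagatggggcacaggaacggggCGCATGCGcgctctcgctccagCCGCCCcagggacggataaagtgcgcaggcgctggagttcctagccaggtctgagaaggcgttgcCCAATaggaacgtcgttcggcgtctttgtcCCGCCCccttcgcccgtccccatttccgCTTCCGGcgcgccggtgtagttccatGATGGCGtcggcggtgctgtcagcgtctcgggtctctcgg
Ndufa5 (chr6:24527641-24527940, minus strand): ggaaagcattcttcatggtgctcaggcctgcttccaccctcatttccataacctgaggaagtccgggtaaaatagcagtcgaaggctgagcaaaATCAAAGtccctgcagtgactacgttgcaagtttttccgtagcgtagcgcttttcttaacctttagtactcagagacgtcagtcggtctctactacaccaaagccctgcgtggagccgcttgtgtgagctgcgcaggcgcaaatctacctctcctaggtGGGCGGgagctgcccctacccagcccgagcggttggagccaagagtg
Cox7a1 (chr7:30183921-30184220, plus strand): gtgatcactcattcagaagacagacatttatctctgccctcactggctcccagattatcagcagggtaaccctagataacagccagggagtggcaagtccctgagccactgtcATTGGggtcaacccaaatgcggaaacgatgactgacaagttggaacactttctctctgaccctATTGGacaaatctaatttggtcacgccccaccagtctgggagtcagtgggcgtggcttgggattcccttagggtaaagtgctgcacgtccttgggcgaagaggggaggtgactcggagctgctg

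The motifs searched were the TCF/LEF core CTTTGAT, the ETS core CCGGAAG, the NRF1 core GCATGCG, the YY1 core GATGGCG, the GC box GGGCGG and the CCAAT box. Both strands were read, and matches on opposite strands can share bases, as at the palindromic NRF1 match of Cox6a1 and at a pair of CCAAT matches of Atp5g1. The TCF/LEF core was in 1 of 87 member promoters (1.15%), that of Ndufa5, against 2.6% of 9918 promoters of other genes with H3K27ac in all 4 DN3 lists and 3.73% of all 32851 promoters. It was in 0 of 22 promoters of members with a DN3 TCF-1 site. The ETS core was in 25.3% of member promoters, against 20.0% of the acetylated others and 8.86% of all promoters. The NRF1 core was in 14.9% of member promoters, against 6.89% and 3.58% of those same backgrounds, and the YY1 core was in 14.9%, against 6.9% and 3.49%. The GC box was in 46.0% of member promoters, against 63.3% and 35.7%, and the CCAAT box was in 41.4%, against 39.1% and 37.4%. Median GC content was 58.7% in member promoters and 60.7% in the acetylated others. A match is a string of letters, and none was tested as a binding site.

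**Figure D1:**
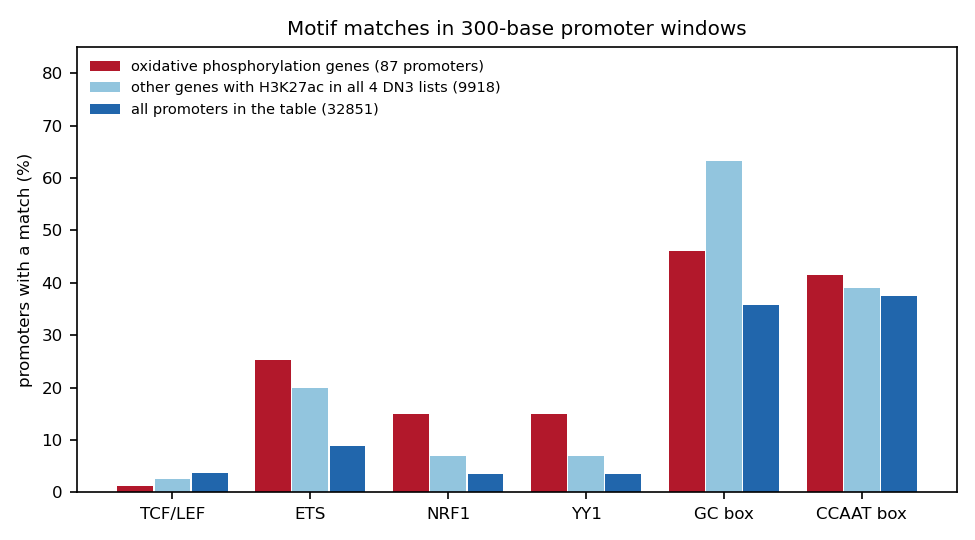
The bars give the percentage of promoters that hold each motif, on either strand, among 87 member promoters, 9918 promoters of other genes with H3K27ac in all 4 DN3 lists and all 32851 promoters of the table. Member bars stand above both other sets for ETS (25.3%), NRF1 and YY1 (14.9% each) and the CCAAT box (41.4%), and below both for TCF/LEF (1.15%), while the GC box (46.0%) lies below the acetylated others (63.3%).

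The lists differed in length within each antibody. In DN3 cells CTCF had 62353 and 55149 peaks in KO lists and 42214 and 53729 in EV lists, and SMC1 had 88886 and 96416 in KO lists and 70438 and 77587 in EV lists. NIPBL had 23951 and 14107 peaks in KO lists and 9206 and 15232 in EV lists, while H3K27ac had 36544 and 37629 in KO lists and 38827 and 42180 in EV lists. In fibroblasts CTCF had 68306 and 64645 peaks in induced lists and 38369 and 41236 in untreated lists. SMC1 had 95293 in the induced and 105033 in the untreated list, and TCF-1 had 4978 and 5356 in DN3 EV lists and 39489 in induced fibroblasts. Read depth is unknown, and a longer list covers more genes, so list lengths stand beside each comparison. All 9 T precursor markers carried H3K27ac in every DN3 list, against 2 of 7 fibroblast, 1 of 5 B lineage, 2 of 5 myeloid and 1 of 4 muscle markers. In fibroblasts SMC1 was in every list at 7 of 7 fibroblast markers and 3 of 9 T precursor markers. Tcf7 itself carried H3K27ac over 2001 and 2001 bp in KO lists and 2224 and 2001 bp in EV lists. The peaks at Tcf7 do not check the knockout, because the files hold no RNA, protein or deleted sequence, and TCF-1 lists of KO cells and of untreated fibroblasts were not analysed here.

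Oxidative phosphorylation genes were occupied more often than other genes in each of the 25 lists. H3K27ac was at 89 of 100 members in every DN3 list, against 44.8% of other genes, and SMC1 was at 83 in every DN3 list, against 44.9%. NIPBL was at 55 members in every DN3 list, against 28.0% of other genes, and CTCF was at 40, against 24.7%. In fibroblasts SMC1 was at 85 members in both lists, against 54.7%, and CTCF was at 37 in all 4 lists, against 24.7%. DN3 TCF-1 sites held by both lists were at 23 members, against 11.0%, and the fibroblast TCF-1 list met 73 members, against 40.3%. Ribosomal protein genes, another set that nearly every cell uses, had higher shares than the members for TCF-1 in DN3 cells (32.6%) and in fibroblasts (82.0%), for DN3 CTCF (49.4%), NIPBL (66.3%) and H3K27ac (93.3%), but a lower one for DN3 SMC1 (82.0%).

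Set beside other genes with H3K27ac in all 4 DN3 lists, the shares lay close together. Among 89 such members and 9756 such other genes, DN3 TCF-1 sites were at 25.8% of members and 24.5% of others. CTCF in every DN3 list was at 42.7% of members and 43.3% of others, NIPBL at 61.8% and 62.2%, and SMC1 at 91.0% and 88.3%. Fibroblast TCF-1 was at 82.0% of these members and 74.5% of these others. Occupancy of the members was therefore near that of other acetylated genes, and no difference from them was tested.

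**Figure D2:**
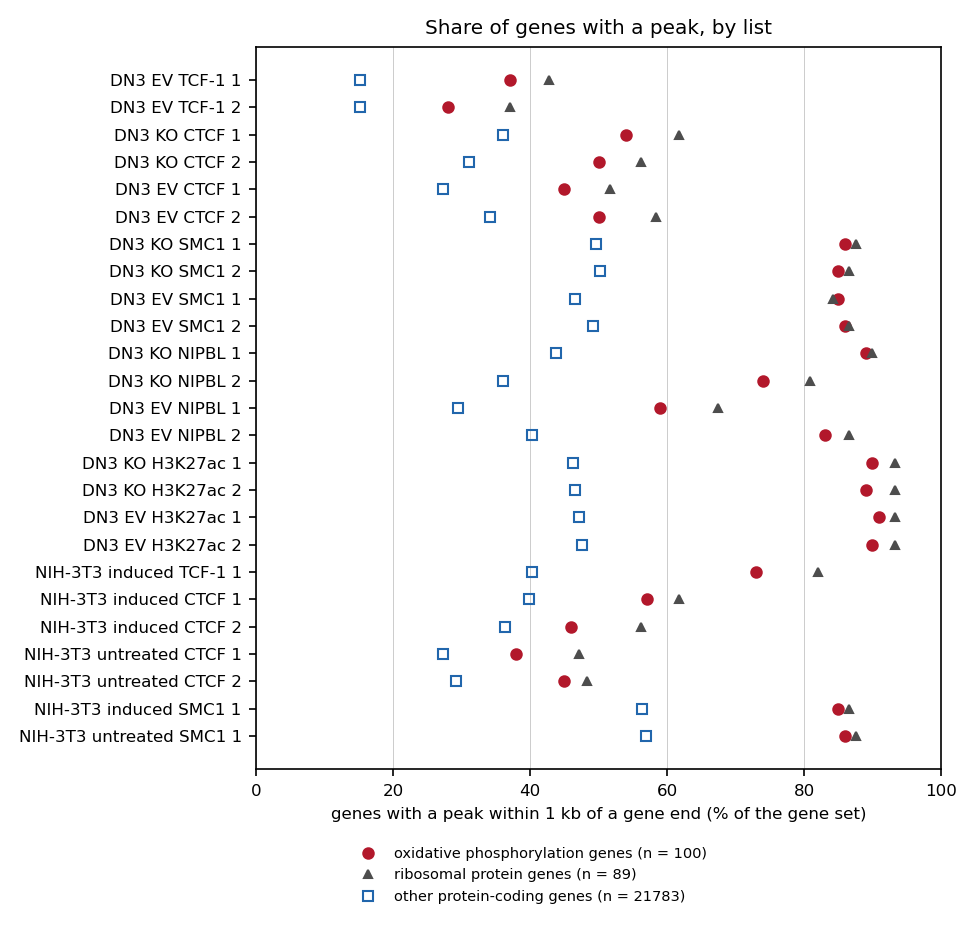
Each row is a peak list and the horizontal axis gives the percentage of genes with a peak within 1 kb of a gene end. Circles are the 100 oxidative phosphorylation genes, triangles the 89 ribosomal protein genes and squares the 21783 other protein-coding genes, and the circle lies right of the square in each row.

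Counts differed by complex, and 8 of the 20 complex IV genes are tissue-restricted isoforms. H3K27ac was in every DN3 list at 17 of 17 ATP synthase genes, 45 of 47 complex I genes, 8 of 8 complex II genes and 8 of 8 complex III genes, but at 11 of 20 complex IV genes. The complex I genes without it were the copies Ndufb4b and Ndufb4c. Cox5a and Cox7a2 of complex IV had it in all 4 DN3 lists once their annotated start sites were added. DN3 TCF-1 sites were at 14 of 47 complex I genes, 5 of 17 ATP synthase genes, 3 of 20 complex IV genes, 1 of 8 complex III genes and 0 of 8 complex II genes. Within complex I, they were at 3 of 7 core subunits, which carry the cofactors and the quinone site, at 10 of 30 accessory subunits and at 1 of 8 assembly factors. CTCF was in every DN3 list at 6 of 8 complex III, 5 of 8 complex II, 9 of 17 ATP synthase, 16 of 47 complex I and 4 of 20 complex IV genes. NIPBL was in every DN3 list at 13 of 17 ATP synthase genes and at 4 of 20 complex IV genes. Groups of 8 genes are small, and these counts are a description.

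**Figure D3:**
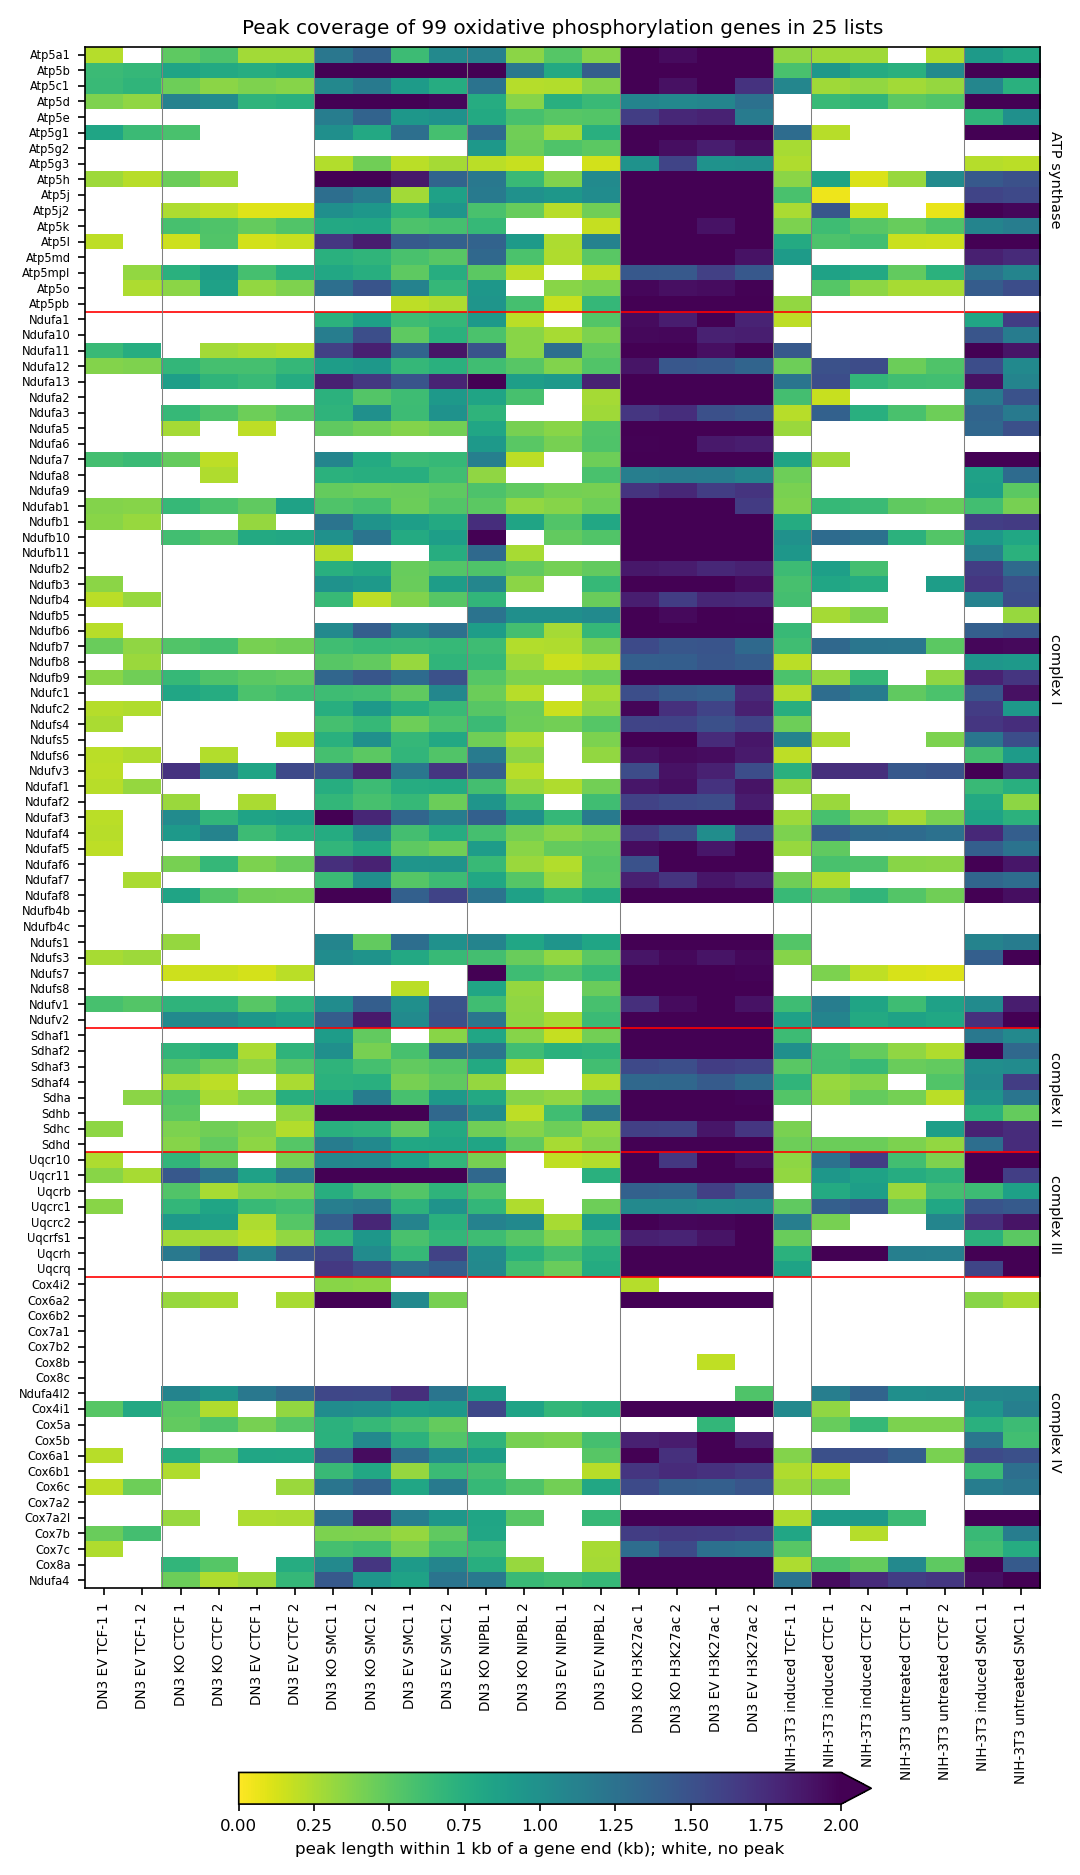
Rows are 99 of the 100 genes grouped by complex (red lines), columns are the 25 lists grouped by antibody, and colour gives the peak length within 1 kb of a gene end in kb, with white for no peak. The H3K27ac columns are dark in nearly all rows outside the restricted isoforms of complex IV, and DN3 TCF-1 is white in most rows.

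Members had a peak in a median of 17 of the 25 lists, against 8 for other genes and 19 for ribosomal protein genes. Atp5b, Atp5c1, Ndufa12, Ndufb7 and Ndufab1 had a peak in every list, which is 5.0% of members, against 3.69% of other genes and 14.6% of ribosomal protein genes. Atp5b encodes the catalytic β subunit of the ATP synthase, Atp5c1 its central stalk γ subunit, and Ndufab1 the mitochondrial acyl carrier protein. Atp5c1 had TCF-1 peaks over 646 and 689 bp in DN3 EV lists and 1079 bp in induced fibroblasts. Its CTCF peaks covered 442 and 348 bp in KO lists and 387 and 367 bp in EV lists, so the conditions overlapped. Ndufab1 had TCF-1 over 370 and 361 bp in DN3 EV lists and 390 bp in fibroblasts, a narrow and even peak in all 3. Beyond these, Sdha, the flavoprotein of complex II, had peaks in 24 lists, Uqcr11, Uqcrc1 and Uqcrh of complex III in 23 each, and Ndufa4 of complex IV in 23.

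No peak in any list lay at 7 members (7.0%, against 31.9% of other genes), namely Cox6b2, Cox7a1, Cox7a2, Cox7b2, Cox8c, Ndufb4b and Ndufb4c. Ndufb4b and Ndufb4c are near-copies of Ndufb4, and reads from such copies may not be placed uniquely, so their lack of peaks is uncertain. For Cox7a2 the lack comes from the annotation. The gene's outer ends lie 4612 bp or more from its annotated start site, and with a window around that start site it had peaks in 15 lists. These included H3K27ac over 1802 and 1802 bp in KO lists and 1825 and 1680 bp in EV lists. Cox5a, a structural subunit of complex IV, had peaks in 25 lists once its start site, 3904 bp from the nearer end, was added, and in 15 lists without it. This alternative was chosen after seeing the data.

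Tissue-restricted isoforms of complex IV stood apart from their widely used partners. TCF-1 was at 0 of 8 restricted isoforms in either line, against 11.0% of other genes in DN3 cells and 40.3% in fibroblasts. For DN3 TCF-1, 0 of 8 is thus near the share of other genes. NIPBL was in every DN3 list at 0 of 8, against 28.0% of other genes. H3K27ac was in every DN3 list at 1 of 8, against 10 of the 12 other complex IV genes. That gene was Cox6a2, the heart and skeletal muscle form of subunit 6a. Its H3K27ac covered 2932 and 2932 bp in KO lists, against 2929 and 2784 bp in EV lists, and an end of Itgad, an integrin gene, lies 69 bp away, so the peaks cannot be assigned to Cox6a2. Its widely used partner Cox6a1 had peaks in 22 lists, with H3K27ac over 2001 and 1725 bp in KO lists and 2001 and 1993 bp in EV lists. Cox4i2, a form known from lung and from low oxygen, had SMC1 over 353 and 336 bp in KO lists and 0 bp in both EV lists, and its single other peak was H3K27ac over 222 bp in the first KO list. Cox4i1, its widely used partner, had H3K27ac over 2001 bp in all 4 DN3 lists. Cox8b, a heart and muscle form, had 1 peak in all, H3K27ac over 195 bp in the first EV list, while Cox8a had peaks in 21 lists. Ndufa4l2, which is induced by low oxygen, had CTCF in all 8 lists and SMC1 in all 6, but H3K27ac in the second EV list alone (548 bp). Ends of Shmt2 and Stac3 lie 31 and 451 bp from it. Cox6b1 and Cox7b, the partners of Cox6b2 and Cox7b2, had peaks in 15 lists each.

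Occupancy lay mostly at the start of the genes, in members as in other genes. Among 72 members longer than 2000 bp with a known strand, DN3 TCF-1 was at the start end of 29 and 23 in the EV lists and at the far end of 1 in each. Of other genes of that kind, 16.3% had it at the start end and 0.918% at the far end in each list. In the first EV list H3K27ac was at the start end of 70 and the far end of 8, SMC1 at 65 and 11, and CTCF at 31 and 6. The start and far end shares for H3K27ac were 97.2% and 11.1% of members, against 49.8% and 11.1% of other genes. For SMC1 they were 90.3% and 15.3%, against 46.7% and 13.5%, and for CTCF 43.1% and 8.33%, against 23.8% and 8.8%. Fibroblast TCF-1 was at the start end of 59 and the far end of 4. These are 81.9% and 5.56% of members, against 43.1% and 5.11% of the 15255 other genes of that kind. Median centres of CTCF peaks near member start sites lay upstream, at -69.0 and -79.5 bp in KO lists and -84.5 and -120.0 bp in EV lists. The quartiles lay on both sides of the start site, at -244 and 82 bp in the first KO list and -292 and 53 bp in the first EV list. Median H3K27ac centres lay downstream, at 161.0 and 138.0 bp in KO lists and 169.0 and 164.0 bp in EV lists. Their quartiles were -83 and 323 bp in the first KO list and 2 and 304 bp in the first EV list.

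Many of these start sites are shared. In all, 55 of 100 members had an end of another protein-coding gene in their window, such as Ndufs1 with Eef1b2 at 9 bp, Ndufb1 with Cpsf2 at 21 bp and Ndufs6 with Mrpl36 at 21 bp. TCF-1 in DN3 cells was at 27.3% of these 55 members, against 18.6% of 5370 other genes that share a window. Without them it was at 8 of 45 members (17.8%), against 8.55% of other genes that share none. Fibroblast TCF-1 was at 30 of those 45 (66.7%), against 32.9%. A peak in a shared window belongs to no single gene.

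The 23 members with TCF-1 in both DN3 EV lists held 24 TCF-1 sites. Of the 20 sites whose gene had an annotated start site, 17 had their centre within 250 bp of it, with a median of 22.0 bp downstream and quartiles of -42 and 55 bp. All 24 sites met SMC1 and H3K27ac peaks of all 4 DN3 lists, 16 met NIPBL in all 4, 7 met CTCF in all 4 and 8 met CTCF in none. Of the 2401 other genes with a DN3 TCF-1 site, 2389 had H3K27ac in all 4 DN3 lists. Acetylation was thus not particular to the sites of members. SMC1, NIPBL and CTCF were not counted at the TCF-1 sites of other genes. The widest of the 24 sites was at Atp5g1, a c-ring subunit of the ATP synthase (chr11:96075546-96076394, 849 bp), followed by Ndufa11 (814 bp), Cox4i1 (793 bp), Atp5c1 (689 bp), Ndufa7 (639 bp), Ndufv1 (605 bp) and Cox7b (601 bp). Ndufv1 binds NADH and the flavin of complex I. TCF-1 peaks at members were narrower than at other genes, with medians of 303 and 330 bp at members and 373 and 371 bp at others in the EV lists. A peak in either list was at 42 members. Without the second EV list TCF-1 was at 37 members, and without the first at 28.

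In all, 21 members had TCF-1 in both lines, against 10.5% of other genes. Of the 2401 other genes with a DN3 TCF-1 site, 2286 also had fibroblast TCF-1. Of the 24 DN3 sites at members, 21 met a TCF-1 peak of induced fibroblasts. The other 3 did not, and 2 of them are described here. The site at Atp5d (chr10:80139119-80139506) lay between the outer ends of the gene, within 1 kb of its start coordinate, 80138698. Its centre was at -2963 bp from the annotated start site, which lies farther inside the gene. Atp5b had a second site 7775 bp downstream of its start site, past its far end (chr10:128090952-128091212), where an end of Baz2a lies within 982 bp of the gene. In fibroblasts 90 TCF-1 peaks lay at members, and 58 of the 81 with an annotated start site were centred within 250 bp of it (median -6.0 bp). The 27 members without fibroblast TCF-1 at either end included Atp5d, Ndufs7, Ndufs8 and Sdhb. The annotated start site of Atp5d lies 3513 bp from its nearer end, and with that site added the gene had 680 bp of fibroblast TCF-1.

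**Figure D4:**
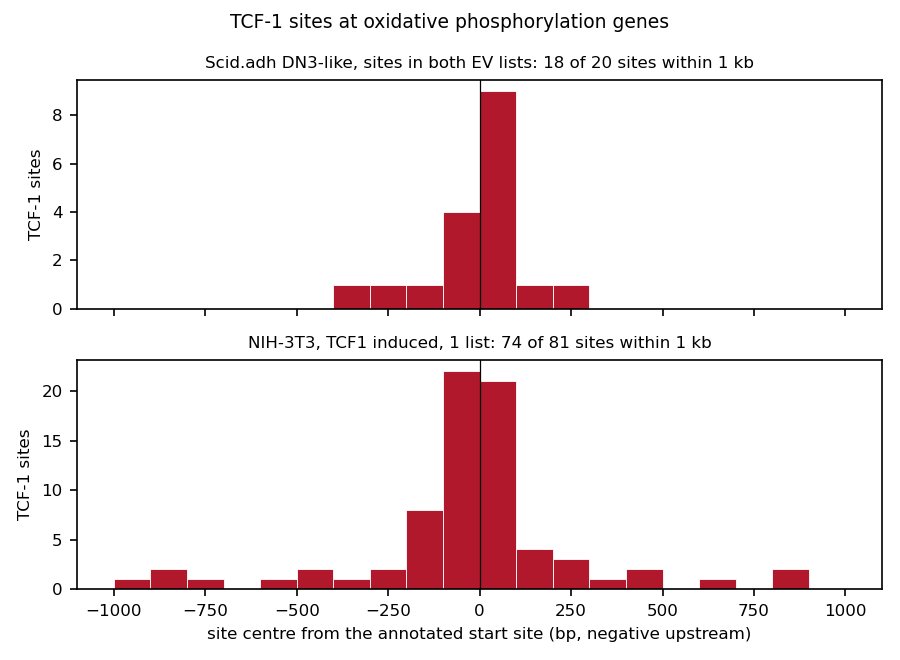
Histograms of the distance from TCF-1 site centres to the annotated start site of the member, in bp, in 100 bp bins, for 20 DN3 sites held by both EV lists and 81 peaks of induced fibroblasts. Sites beyond 1 kb are not drawn (2 and 7), and both sets pile up beside the start site, with medians of 22.0 and -6.0 bp.

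CTCF at the members was compared between TCF1 KO and EV cells by presence and by covered length, the peak bases inside the windows. With 2 lists against 2 the smallest exact 2-sided permutation p is 0.333, so no single gene could reach 0.05, and a gene was counted as higher or lower when both KO lists lay outside the range of the EV lists. A list pools many cells, so a wider peak in each cell and a peak in more cells cannot be told apart. CTCF covered more in KO lists at 20 members, against 9.49% of other genes, and less at 3, against 1.92%. It covered more at 12.8% of other genes that share a window and 8.43% of those that share none. Among genes with any DN3 CTCF peak the shares were 33.3% of 60 members and 23.6% of others. The median covered length of these members was 520.5 bp in KO and 406.0 bp in EV cells.

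The higher members included 4 of the 8 complex III genes. Uqcrc2, a core protein of complex III, had 923 and 878 bp in KO lists, against 247 and 524 bp in EV lists. Uqcr10 had 684 and 471 bp in KO lists, against 0 and 407 bp in EV lists. Both genes lay above their EV range. In all, 5 ATP synthase and 9 complex I genes were also higher, among them Atp5d with 1116 and 1033 bp in KO lists, against 697 and 728 bp in EV lists. CTCF was in both KO lists and neither EV list at Atp5h and Ndufa7, 2 members against 1.32% of other genes, and in both EV lists alone at 0 members, against 0.358%. Atp5h, a subunit of the stator stalk, had 451 and 294 bp in KO lists and Ndufa7 473 and 200 bp, against 0 bp in the EV lists of each. Both also carried a DN3 TCF-1 site in both EV lists, as did 23 of all 100 members and 11.0% of other genes. A link between TCF-1 sites and the CTCF calls was not tested. The lower members were Ndufa4l2 (1097 and 974 bp in KO lists, against 1201 and 1324 bp in EV lists), Ndufb10 (603 and 537 bp, against 783 and 798 bp) and Cox6a1 (756 and 500 bp, against 820 and 806 bp).

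Leaving out a list loosens the rule, because fewer lists must agree, so these counts could only stay or rise. Without the second EV list, 39 members were higher in KO, and without the second KO list, 36. Without the first KO list, 9 members were lower, and without the first EV list, 12. CTCF was in KO lists alone at 4 members without the first KO list, 5 without the second KO list and 7 without the second EV list. The first EV list was the shortest CTCF list of the line. With all lists trimmed to its length by keeping their widest peaks, 18 members were higher, against 7.41% of other genes. Such trimming drops narrow peaks only, so it cannot correct for depth.

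SMC1 covered more in KO than in EV lists at 46 members, against 24.0% of other genes, and less at 2, against 2.16%. Among genes with any DN3 SMC1 peak the shares were 52.3% of 88 members and 45.2% of others, and the median covered length of these members was 914.5 bp in KO and 760.5 bp in EV cells. With lists trimmed to equal length by keeping their widest peaks, 43 members were higher, against 21.8% of other genes. Of the 12 assembly factors 9 were higher, as were 9 of 17 ATP synthase genes, 10 of 20 complex IV genes and 18 of 47 complex I genes.

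The widest SMC1 difference in assembly factors was at Ndufaf6, with 1734 and 1811 bp in KO lists, against 954 and 962 bp in EV lists. Ndufaf3 had 2304 and 1782 bp in KO lists, against 1348 and 1156 bp in EV lists. At Cox6a2 the windows held 2438 and 2187 bp in KO lists, against 1056 and 414 bp in EV lists, the largest SMC1 difference of any member. Ndufa10, an accessory subunit of complex I, had 1153 and 1522 bp in KO lists, against 495 and 721 bp in EV lists. SMC1 was in both KO lists alone at Cox4i2, 1 member against 1.08% of other genes, and in both EV lists alone at Atp5pb, 1 member against 0.239%. Atp5pb, which encodes the b subunit of the stator stalk, had 0 bp in both KO lists, against 200 and 245 bp in EV lists. The other lower member was Ndufaf1 with 752 and 630 bp in KO lists, against 763 and 774 bp in EV lists. Leaving out single lists, which loosens the rule, gave 53 to 67 higher members. The lower members then numbered 9 without the first KO list, 5 without the second, 16 without the first EV list and 8 without the second.

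NIPBL covered more in KO than in EV lists at 19 members, against 11.1% of other genes, and less at 0, against 0.303%. Among genes with any NIPBL peak the shares were 21.3% of 89 members and 24.2% of others. The lists themselves were uneven, since NIPBL met 89 and 74 members in KO lists and 59 and 83 in EV lists. NIPBL was in both KO lists alone at Ndufv3 and Ndufb11, 2 members against 0.941% of other genes, and in both EV lists alone at 0, against 0.119%. Ndufv3 had 1393 and 214 bp in KO lists and Ndufb11 1316 and 263 bp, so the first KO list was several times the second at each. Cox4i1 had 1567 and 837 bp in KO lists, against 673 and 739 bp in EV lists. Under the looser rule with a list left out, 85 members were higher without the second KO list. Without the second EV list 59 were higher and 18 had NIPBL in KO lists alone, and without the first KO list 16 were lower. With lists of equal length 17 members were higher, against 8.58% of other genes.

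H3K27ac at the members was counted as higher in KO lists about as often as lower. Its median covered length was 1966.0 bp in KO and 1958.5 bp in EV cells over 93 members with any peak, and the median difference was 0.0 bp. A window holds at most 2001 bp per gene end, and many members reached that in all 4 lists, where no difference could be counted. Cox4i1 and Uqcrq did so, yet the widest peak at Cox4i1 had 5211 and 5210 bp in KO lists, against 3204 and 3164 bp in EV lists. At Uqcrq it had 2576 and 2762 bp in KO lists, against 4280 and 4459 bp in EV lists. Both were picked after seeing the data. It was higher in KO at 11 members, against 7.19% of other genes, and lower at 9, against 9.86%. Of genes with any H3K27ac peak, 9.68% of members and 20.1% of others were lower. No member had H3K27ac in KO lists alone (0, against 0.473% of other genes) or in EV lists alone (0, against 1.06%). Leaving out single lists, which can only keep or raise these counts, gave 21 to 28 higher and 13 to 21 lower members. The first count rose by over 1.5 times with each of the 4 lists left out. Ndufa12 had 1885 and 1459 bp in KO lists, against 1432 and 1353 bp in EV lists, and Ndufa3 had 1681 and 1738 bp in KO lists, against 1513 and 1464 bp in EV lists. Of the 8 complex II genes 4 were lower, among them Sdhb, the iron-sulphur subunit, with 2925 and 2624 bp in KO lists, against 3464 and 3152 bp in EV lists.

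Cox8a had 2001 and 2001 bp in KO lists, against 2316 and 2454 bp in EV lists. Its start end was fully covered in all 4 lists (2001 bp), and the difference lay at its far end, with 0 and 0 bp in KO lists, against 315 and 453 bp in EV lists. The −log10 q-value that the authors gave the top H3K27ac peak at Cox6a2 was 3.23 and 3.43 in KO lists and 17.7 and 14.5 in EV lists. At Ndufb11 it was 39.0 and 33.4 in KO lists and 36.0 and 34.3 in EV lists. These genes were chosen after their values were seen, and q-values of different lists rest on different depths, so no change is read from them. Within its own list, the top H3K27ac peak of members stood at a median percentile of 92.6 and 93.1 in KO lists and 93.5 and 93.7 in EV lists.

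SMC1 was missing where NIPBL was present at a few members. Atp5g2, Ndufa6, Ndufb5 and Ndufs7 had H3K27ac and NIPBL in all 4 DN3 lists each and SMC1 in none. That is 4 of the 4 acetylated members without SMC1, while among other genes 128 of 427 acetylated genes without SMC1 had NIPBL in every list (30.0%). Lack of SMC1 as such was as common in members (4.49% of 89) as in other acetylated genes (4.38%). Ndufb5 had NIPBL over 1238 and 1004 bp in KO lists and 1006 and 1041 bp in EV lists, against a median of 590.0 bp in KO and 381.5 bp in EV cells over members with any NIPBL peak. Ndufs7, an iron-sulphur core subunit of complex I, had CTCF in all 8 lists of both lines and SMC1 in none of the 6. The pattern was noticed in the data and was not tested.

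In NIH-3T3 fibroblasts, CTCF covered more in TCF1 induced than in untreated lists at 33 members, against 25.2% of other genes, and less at 0, against 0.376%. Among genes with any fibroblast CTCF peak the shares were 55.9% of 59 members and 59.5% of others, so the members were near the background. The median covered length of these members was 568.5 bp in induced and 438.0 bp in untreated cells, and both induced lists were over 1.5 times as long as either untreated list. With lists trimmed to equal length by keeping their widest peaks, 29 members were higher, against 18.8% of other genes. Uqcrh, the hinge protein of complex III, had 2444 and 2361 bp in induced lists, against 1138 and 1125 bp in untreated lists. Ndufa12 had 1504 and 1532 bp in induced lists, against 453 and 553 bp in untreated lists, where its promoter, shown above, was also met by CTCF. Uqcrc1 had 1391 and 1468 bp in induced lists, against 465 and 810 bp in untreated lists. CTCF was in both induced lists and neither untreated list at Ndufb2 and Ndufb5, 2 members against 5.37% of other genes, and in untreated lists alone at 0, against 0.0367%. Ndufb2 had 869 and 594 bp in induced lists and Ndufb5 272 and 375 bp, against 0 bp in untreated lists. Leaving out a list could only keep or raise these counts. Without the second induced list 12 members had CTCF in induced lists alone, and without the second untreated list 7. As single lists were left out, 34 to 47 members were higher. Without the first untreated list 7 members were lower, and without the first induced list 3.

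SMC1 in fibroblasts had 1 list per condition, so its difference has no replicate check. The induced list alone met 0 members that the untreated list did not, against 1.5% of other genes, and the untreated list alone met 1, against 2.16%. That gene was Ndufb5, with 0 bp in the induced list and 309 bp in the untreated list. The median covered length over 86 members with a peak was 1373.0 bp in the induced and 1417.5 bp in the untreated list, while the median of the per-gene differences, induced minus untreated, was 14.5 bp. SMC1 was in every list of both lines at 83 members, and CTCF at 34.

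**Figure D5:**
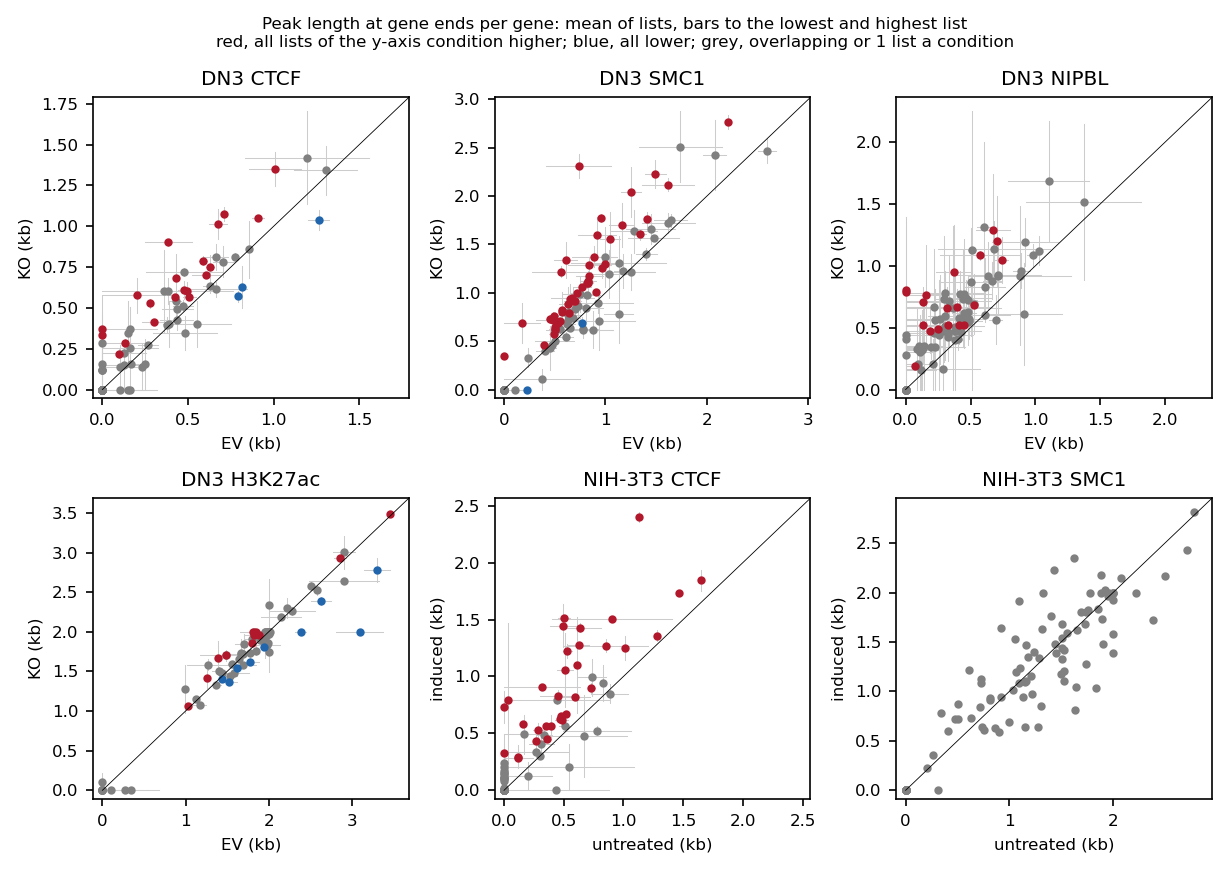
Each point is a member, with the mean peak length in its windows (kb) in KO or induced cells on the vertical axis and in EV or untreated cells on the horizontal axis, and bars run to the lower and higher list. Red points (20 for DN3 CTCF, 46 for SMC1, 19 for NIPBL, 11 for H3K27ac and 33 for NIH-3T3 CTCF) have all lists higher in KO or induced cells, blue points all lower, and the line marks equal values.

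Genes that work with the complexes were described from lists of related genes. All 28 assembly factors of complexes III and IV carried H3K27ac in every DN3 list, as did 13 of 13 citric acid cycle enzymes, 13 of 13 genes of mitochondrial DNA upkeep, 9 of 10 assembly factors of complex I and the ATP synthase, 11 of 13 genes of the electron carriers and 7 of 9 nuclear regulators of respiration. DN3 TCF-1 sites were at 8 of the 28 assembly factors, 5 of 13 citric acid cycle genes, 5 of 13 mitochondrial DNA genes, 2 of 10 further assembly factors, 4 of 13 electron carrier genes and 1 of 9 regulators. Of all genes outside oxidative phosphorylation, 44.8% had H3K27ac in every DN3 list and 11.0% had a DN3 TCF-1 site. Among those with H3K27ac in all 4 DN3 lists, 24.5% had such a site. SMC1 covered more in KO than in EV lists at 17 of the 28 assembly factors of complexes III and IV, 7 of 13 citric acid cycle genes, 6 of 13 mitochondrial DNA genes, 4 of 10 further assembly factors, 4 of 13 electron carrier genes and 3 of 9 regulators, against 24.0% of all genes outside oxidative phosphorylation. CTCF covered more in KO than in EV lists at 5 of 28 assembly factors of complexes III and IV, 1 of 13 citric acid cycle genes, 0 of 13 mitochondrial DNA genes, 1 of 10 further assembly factors, 0 of 13 electron carrier genes and 1 of 9 regulators, against 9.49% of all genes outside oxidative phosphorylation. Most genes of these lists are acetylated. Among other genes with H3K27ac in all 4 DN3 lists, SMC1 covered more in KO lists at 44.3% and CTCF at 15.2%. Lists of 9 to 28 genes give coarse shares, and none was tested.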

How the data were processed

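ChIP-seq peak lists of 25 samples were analysed. Per the labels' protocols, crosslinking used 1% formaldehyde, and read pairs were 38 and 37 bp long. Bowtie2, MACS2, bedtools and mm10 (GRCm38) are named per the submitters' processing notes, with versions, settings and controls not given in the sources used here. The CTCF, SMC1 and TCF-1 lists hold 3 columns of positions. In the 9 columns of the NIPBL and H3K27ac lists the authors deposited 4 values per peak, a score, a fold of enrichment, its −log10 p-value and its −log10 q-value, and only the −log10 q-value was used, to rank peaks within a list. Every deposited −log10 q-value was above 1. Lists that hold positions alone were ranked by peak width, so their equal-length versions kept the widest peaks.

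Genes came from RefSeq (GRCm38.p6), and no genome sequence was used here. Per gene and list, peaks and covered bases within 1000 bp of either end were computed with Python 3.11.15, numpy 2.4.6, pandas 2.3.3 and scipy 1.17.1, and plots were drawn with matplotlib 3.10.9. The computation was tested on simulated lists. A DN3 TCF-1 site is a region made by merging the 2 TCF-1 lists and overlapped by each. The lists hold no read counts, so depth is unknown and no interval was made. Groups and replicate numbers came from the labels.

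The members and gene lists were chosen with earlier results of these data known. Named genes were members with DN3 TCF-1 sites, members called in 1 condition, by covered length, members with no peak or with every antibody, and restricted isoforms beside their partners. Alternatives were windows of 500 bp and 5 kb, the start end alone, at least 50% of a peak inside the window, a stricter threshold, equal list lengths, subsets of members, single lists left out and the replicate number as a block. The values of 1 member are not reported here, though it stays in the counts.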

Additional observations from a re-analysis of the deposited data

Results flagged for a closer look

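CTCF coverage at the members moved in opposite directions with respect to the presence of TCF-1 in the 2 lines. Its mean over lists was higher in KO cells, which lack TCF-1, and also higher in induced cells, which gain it. Summed over the 100 members, CTCF peaks covered 33506 and 29168 bp in KO lists, against 22009 and 28866 bp in EV lists, a mean difference of 5899.5 bp. In fibroblasts they covered 44691 and 37150 bp in induced lists, against 24247 and 27289 bp in untreated lists, a mean difference of 15152.5 bp. In both lines the CTCF lists of the higher condition were also the longer ones. All CTCF peaks of a list together covered 27752107 and 23256812 bp in KO lists, against 16566250 and 23140251 bp in EV lists. They covered 37552621 and 34278013 bp in induced lists, against 17766327 and 20076724 bp in untreated lists. In each line the member sums ranked as these totals did. The part of list length in this was not tested.

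At 11 members every KO list lay above every EV list and every induced list above every untreated list, out of 20 and 33 such members in each line alone. Among the 21783 other genes 1284 did so, of 2068 and 5494, so the overlap was not particular to the members. The KO minus EV differences of mean covered length were 251.0 bp at Atp5a1, 362.0 bp at Atp5d, 122.5 bp at Atp5j2, 130.5 bp at Ndufa3, 338.5 bp at Ndufaf4 and 255.5 bp at Ndufaf8. They were 142.5 bp at Ndufb7, 200.5 bp at Ndufc1, 374.0 bp at Uqcr10, 342.0 bp at Uqcr11 and 122.0 bp at Uqcrc1. The difference between the lines was not tested.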

How the results depend on the processing

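The larger of 2 opposed counts turned in 4 cases. Fibroblast CTCF gave 1 only-induced and 2 only-untreated with equal list lengths (2 and 0 in the report), and fibroblast SMC1 gave 6 only-induced and 2 only-untreated in the upper 50% of each list (0 and 1). NIPBL gave 2 only-KO and 3 only-EV without the first KO list (2 and 0), and H3K27ac gave 12 higher and 14 lower with at least 50% of a peak inside the window (11 and 9). Adding every annotated start site to the windows, an alternative chosen after seeing the data, moved 0 of 24 counts by over 1.5 times. Higher and lower below mean covered length in KO or induced lists, and only-KO and the like mean presence in the lists of that condition alone. Causes were not tested. The main limits are list length, 2 lists or fewer per condition, and unknown depth.

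With 5 kb windows, DN3 CTCF gave 36 higher, 1 lower and 1 only-KO, SMC1 gave 4 lower and 0 only-KO, and H3K27ac gave 24 higher, 23 lower and 1 only-EV. Fibroblast CTCF gave 58 higher and 6 only-induced, and fibroblast SMC1 gave 1 only-induced. With 500 bp windows, SMC1 gave 1 lower, 0 only-KO and 0 only-EV, and H3K27ac gave 4 higher and 4 lower. With the start end alone, SMC1 gave 0 only-KO, NIPBL 1 lower, fibroblast CTCF 1 only-induced and fibroblast SMC1 0 only-untreated. With at least 50% of a peak inside the window, H3K27ac gave 14 lower, 2 only-KO and 4 only-EV, and fibroblast SMC1 gave 2 only-induced and 4 only-untreated. With the upper 50% of each list by −log10 q or width, SMC1 gave 1 lower and 0 only-EV, NIPBL 1 lower and 9 only-KO, H3K27ac 1 only-EV, fibroblast CTCF 4 only-induced, fibroblast SMC1 6 only-induced and 2 only-untreated, and DN3 TCF-1 13 members. With equal list lengths, DN3 CTCF gave 1 only-KO and 1 only-EV, NIPBL 2 lower and 0 only-KO, and fibroblast CTCF 3 lower, 1 only-induced and 2 only-untreated. Without assembly factors SMC1 gave 1 lower.

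Over the 45 members that share no window, DN3 CTCF gave 6 higher, 1 lower and 0 only-KO, SMC1 22 higher, 1 lower and 0 only-EV, NIPBL 7 higher and 0 only-KO, and fibroblast CTCF 17 higher and 1 only-induced. Fibroblast SMC1 gave 0 only-untreated, DN3 TCF-1 8 members and fibroblast TCF-1 30. Of the 16413 other genes that share no window, DN3 CTCF was higher at 8.43%, lower at 1.55% and only-KO at 1.16%. SMC1 was higher at 20.3%, lower at 1.96% and only-EV at 0.262%, and NIPBL was higher at 8.77% and only-KO at 0.865%. Fibroblast CTCF was higher at 22.2% and only-induced at 4.75%, and fibroblast SMC1 was only-untreated at 2.32%. TCF-1 was at 8.55% of these genes in DN3 cells and 32.9% in fibroblasts. A TCF-1 peak in either DN3 list was at 42 members.

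Leaving out a list loosens each rule, so the counts could only stay or rise, and their rise is no measure of stability. Single lists left out gave, for DN3 CTCF, 20 to 39 higher, 4 to 12 lower, 2 to 7 only-KO and 1 to 2 only-EV. For SMC1 it gave 53 to 67 higher, 5 to 16 lower, 1 to 2 only-KO and 1 to 2 only-EV. NIPBL gave 19 to 85 higher, 0 to 16 lower, 2 to 18 only-KO and 0 to 3 only-EV. H3K27ac gave 21 to 28 higher, 13 to 21 lower, 0 to 1 only-KO and 0 to 2 only-EV. Fibroblast CTCF gave 34 to 47 higher, 0 to 7 lower, 3 to 12 only-induced and 0 to 1 only-untreated, and DN3 TCF-1 28 to 37 members.

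Same-numbered lists did not deviate together (correlations of -0.127 for DN3 CTCF, 0.0203 for SMC1, -0.218 for NIPBL, -0.0054 for H3K27ac and -0.0213 for fibroblast CTCF), so the numbers were not taken as pairs. With a replicate block, SMC1 gave 7 lower and fibroblast CTCF 1 lower, and the other counts moved by less than 1.5 times. With the crossed replicate block, tried after seeing the data, DN3 CTCF gave 26 higher and 5 lower, and NIPBL 58 higher and 1 lower. Either block compares each list with its matched list alone, a looser rule, so counts of higher and lower could only stay or rise.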
